A study of Mus musculus with 3 samples.

Results

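NF-kB is a family of transcription factors that act as dimers and switch on inflammatory and survival genes. The 10 genes described here are its subunits (Nfkb1, Nfkb2, Rela, Relb and Rel) and genes that restrain it (Nfkbia, Nfkbib, Nfkbie, Nfkbiz and Tnfaip3), measured by RNA sequencing of mouse microglia, the resident macrophages of the brain. They were taken by gene symbol, and all 10 were found among the 24411 genes of the deposited tables. The mice were C57BL/6J, aged 6 to 8 weeks by their labels, with loxP sites on both copies of Mir137, the gene of the microRNA miR-137, and a Tmem119-CreERT2 allele. Tamoxifen, which activates that recombinase, was injected on 7 days at 7 to 8 weeks of age, and the recombinase acts only in cells that express Tmem119, a microglial gene. The samples were labelled cKO and treated with a Pu.1 inhibitor, Pu.1 being the macrophage transcription factor encoded by Spi1. The inhibitor is not named in those labels, nor are its dose, duration and route. The design text mentions 4 mice without assigning them to libraries.

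The 3 libraries form 1 group, replicates 1 to 3, and share both the deletion and the inhibitor. Microglia without either were not analysed here, so neither the deletion nor the inhibitor can be assigned an effect. The labels do not tie a replicate to an animal, and the variation among these samples could be technical. Permutation p-values reflect no more than that variation, and chi-square p-values compare it with counting error alone. Total estimated counts were 17180404, 15710750 and 16356125. Mir137 had 0 counts in each library, as did all 1160 microRNA genes of the tables, so this 0 does not check the genotype. Coordinates below are on GRCm38. Spi1 was at 187, 191 and 182 FPKM (fragments per kilobase of transcript, scaled to library depth) in replicates 1, 2 and 3. All 12 microglial marker genes were detected, with summed levels of 13941 to 14535 FPKM. Markers of other cells were also present. All 11 neutrophil markers were detected, with sums of 14209 to 15688 FPKM, mostly from S100a8 and S100a9 (means of 8800 and 4056 FPKM). The median of log2(FPKM + 1) was 9.05 over the microglial and 7.66 over the neutrophil markers. All 10 endothelial markers were detected, with sums of 2362 to 2538 FPKM. The 7 choroid plexus and ependymal markers, all detected, summed to 6245 to 7131 FPKM, mostly from Ttr (mean of 5690 FPKM). Sums were 609 to 694 FPKM for 8 monocyte, 318 to 352 for 9 border macrophage, 342 to 389 for 8 astrocyte and 305 to 366 for 8 oligodendrocyte markers, all detected. Of 9 mural and fibroblast markers 7 were detected, with sums of 262 to 290 FPKM. Lymphocyte markers summed to 29.5 to 39.7 FPKM with 4 of 11 detected, and neuronal markers to 19.2 to 21.9 FPKM with 3 of 9 detected and Nefl at 0 counts. Several of these cell types also use NF-kB, and their part in the values below was not tested. In bulk RNA, fewer cells of a type and less RNA per cell cannot be told apart.

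In resting cells NF-kB dimers are held in the cytoplasm by inhibitor proteins of the IkB type, which wrap around the subunits through ankyrin repeats. Signals from Toll-like, TNF and interleukin receptors activate the IkB kinase (IKK), which marks the inhibitor for destruction and frees dimers of Rela, Rel and the processed product of Nfkb1 to enter the nucleus. A slower route processes the Nfkb2 product into a partner for Relb. Several inhibitor genes are themselves induced by NF-kB and close a negative feedback loop. In microglia the pathway is known for driving cytokine and chemokine production.

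Promoter sequences are shown first because NF-kB acts on its feedback genes through sites of this kind. RefSeq promoters on GRCm38.p6, each 300 bases long with 250 before and 50 after the start site, were found for 7 members, some with several start sites, 10 promoters in all. Nfkb1, Relb and Nfkbiz had no entry. The kB consensus, the degenerate motif of NF-kB, was searched on both strands and occurred in promoters of 5 of these 7 members (Nfkbia, Nfkbie, Tnfaip3, Nfkb2 and Rel). It was in 7 of the 10 promoters, and in 4.51% of all 32851 promoters of that length. In the stretches below, read 5′ to 3′ on the strand of the gene and lying before the RefSeq start site, capitals mark these matches.
Nfkbia, chr12:55492655-55492688, minus strand: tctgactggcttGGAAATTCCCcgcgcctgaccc
Tnfaip3, chr10:19015411-19015547, minus strand: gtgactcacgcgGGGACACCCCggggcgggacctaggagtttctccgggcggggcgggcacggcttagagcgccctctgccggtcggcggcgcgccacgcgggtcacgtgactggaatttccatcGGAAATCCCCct
Nfkbie, chr17:45555582-45555615, plus strand: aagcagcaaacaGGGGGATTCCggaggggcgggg
Rel, chr11:23771039-23771073, minus strand: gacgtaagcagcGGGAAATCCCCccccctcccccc

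The Nfkbia match began 29 bases upstream of the start site, that of Nfkbie 106 bases upstream, and those of Tnfaip3 125 and 12 bases upstream. In Rel the capitals are 2 matches shifted by 1 base, GGGAAATCCC at 92 and GGAAATCCCC at 91 bases upstream. Nfkb2 had matches at each of its 3 start sites. Among them were GGGAATTCCC at 39 bases upstream of the first and GGGACTTTCC at 225 bases upstream of the most downstream one. The latter promoter overlaps its neighbour, and both hold that same match. Rela and Nfkbib had none of these letters in the window. The motif GAGGAAGT, a core preferred by Pu.1, was searched on both strands and was found in the Rel promoter, 189 bases upstream, and in none of the other promoters of the members, against 3.2% of all promoters. The motif TGANTCA, whose reverse complement is itself, is a looser form of the AP-1 motif, with any base in the middle. Among the 10 promoters of the members it was in 1 each of Nfkb2, Nfkbie and Tnfaip3, against 7.81% of all promoters. It read TGAGTCA in Nfkbie and TGACTCA in Tnfaip3. In Nfkb2 it read TGAATCA, which lacks the C or G that the AP-1 motif has in the middle. These matches describe letters and are not evidence of binding.

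The mature microRNA that the deletion removes is printed with its seed (bases 2 to 8) in capitals, since the seed defines which messages it could pair with.
mmu-miR-137-3p, chr3:118433901-118433923, plus strand: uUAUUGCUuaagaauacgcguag
A perfect match to this seed, AGCAATA, occurred in the 3′ untranslated region of none of the 10 members (0 of 10), taking for each gene the GENCODE M21 transcript with the longest coding sequence. Among 10894 detected genes with such a region 9.17% held at least 1 match, with a median region length of 984 bases. The members' regions ran from 133 bases in Nfkb2 to 5418 bases in Rel. Other transcripts and weaker pairing were not examined.

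All 10 members were detected, meaning that no library was below 1 FPKM, as were 47.8% of all genes. Their levels covered a wide range, from Nfkbia at rank 135 of all genes to Nfkb2 at rank 7515. The median of log2(FPKM + 1) over the members was 5.01 ± 0.07 (SD, n = 3), compared with 0.95 ± 0.02 over all genes. It was 3.91 ± 0.06 for the 5 subunits and 6.81 ± 0.15 for the 5 inhibitors.

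**Figure D1:**
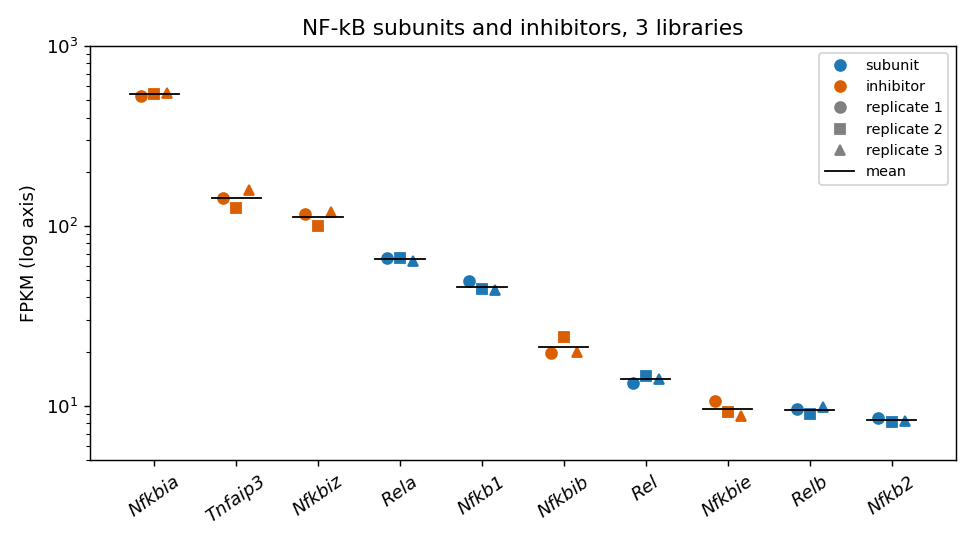
FPKM of each member in each library on a log axis, with replicates as circles, squares and triangles and the mean as a line. Nfkbia lies between 528 and 548 FPKM, Tnfaip3 and Nfkbiz around 100 FPKM and above, and Nfkbie, Relb and Nfkb2 near 10 FPKM or below, with little spread between libraries beside the differences between genes.

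Among the subunits, Rela and Nfkb1, the partners of the classical dimer, were the most abundant. Rela, whose protein carries a strong activation domain (chromosome 19, 5637483 to 5648130), was at 66.2, 66.1 and 63.9 FPKM in replicates 1, 2 and 3. Nfkb1, which encodes a precursor that is cut to a DNA-binding subunit (chromosome 3, 135584655 to 135691547), was at 49.1, 44.4 and 43.9 FPKM. Every library had more Rela than Nfkb1 per length, and replicate 1 was the highest for Nfkb1. The mean levels were 65.4 ± 1.26 and 45.8 ± 2.90 FPKM (SD, n = 3), and the ratio of Rela to Nfkb1 within a library was 1.43 ± 0.07.

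Rel, a subunit best known from lymphocytes and inflammatory macrophages (chromosome 11, 23736847 to 23770970), was at 13.4, 14.6 and 14.1 FPKM. Rela exceeded it by 4.67 ± 0.23 times (SD, n = 3) in FPKM. The level of Rel depends strongly on which transcript is assumed. The effective length (gene length less what a fragment occupies) behind the authors' value was 2303 bases, recovered from its count, FPKM and library total. The GENCODE M21 transcript with the longest coding sequence has 7466 bases, and dividing by that length gave 4.33 ± 0.18 (SD, n = 3), the lowest of the 10 members rather than the seventh. For 8 of the other members that length was 1.07 to 1.23 times the effective length, and for Nfkbib it was 1.75 times.

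Relb and Nfkb2, the pair of the slower non-canonical route, were the lowest subunits in FPKM, though with GENCODE transcript lengths Rel at 4.33 was below Relb at 8.22 and Nfkb2 at 7.51. Relb (chromosome 7, 19606217 to 19629438) was at 9.55, 9.02 and 9.90 FPKM. Nfkb2, the second precursor gene (chromosome 19, 46304320 to 46312385), was at 8.55, 8.14 and 8.28 FPKM. Their ranges did not overlap, with Relb higher in 3 of 3 libraries and a ratio of 1.14 ± 0.05 (SD, n = 3). Together Rela and Nfkb1 exceeded Relb and Nfkb2 by 6.25 ± 0.27 times in summed FPKM, with 6.37, 6.44 and 5.93 times in replicates 1, 2 and 3. Exons of Nfkb2 overlap those of Psd on the opposite strand, which had 54, 26 and 15 counts against 414, 362 and 387 for Nfkb2. Strandedness is not stated, so shared reads could not be told apart.

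Of the summed FPKM of the 5 subunits, Rela made up 45.7 ± 0.70%, Nfkb1 32.0 ± 1.27%, Rel 9.82 ± 0.60%, Relb 6.64 ± 0.38% and Nfkb2 5.82 ± 0.09% (SD, n = 3). The composition was nearly the same in the 3 libraries, with Rela between 45.1 and 46.5%. In CPM, counts scaled to library depth by the TMM method but not to length, Nfkb1 was the larger part at 43.0 ± 1.42% and Rela followed at 38.9 ± 0.80%, because the Nfkb1 message is longer (effective length 3837 against 2428 bases).

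**Figure D2:**
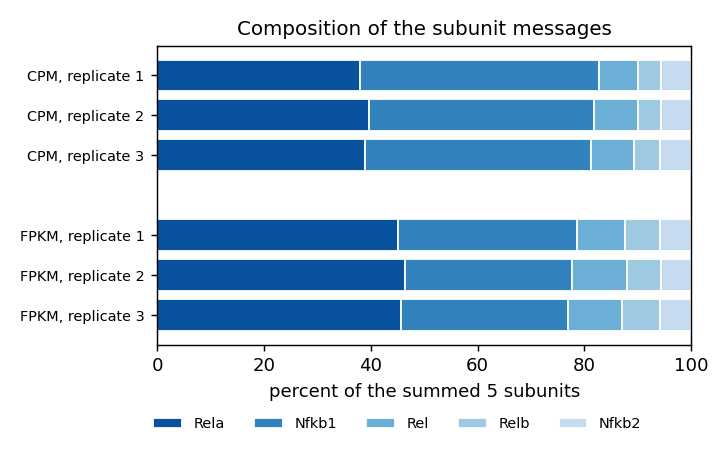
Percent of the summed 5 subunits taken by each, per library, in FPKM (lower bars) and in TMM-normalised CPM (upper bars). Rela is the largest part in FPKM (45.7% on average) and Nfkb1 in CPM (43.0%), and the 3 libraries are alike in both units.

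The 3 classical cytoplasmic inhibitors were expressed at very different levels. Nfkbia encodes IkB-alpha, the inhibitor that is broken down and remade fastest after a signal (chromosome 12, 55489410 to 55492647). It was at 528, 543 and 548 FPKM, a mean of 539.9 ± 10.2 FPKM (SD, n = 3), higher than 98.8% of the detected genes. Nfkbib, which encodes IkB-beta, an inhibitor of slower turnover (chromosome 7, 28758251 to 28767512), was at 19.6, 24.3 and 20.0 FPKM, with replicate 2 above the others. Nfkbie, which encodes IkB-epsilon (chromosome 17, 45555703 to 45563169), was at 10.6, 9.28 and 8.82 FPKM, with replicate 1 above the others.

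Nfkbia thus supplied 94.6 ± 0.41% of the summed FPKM of these 3 inhibitors (SD, n = 3). Within a library its level was 8.26 ± 0.29 times that of Rela. The 3 inhibitors together reached 571 ± 10.5 FPKM and the 5 subunits 143 ± 3.45 FPKM, a ratio of 3.80, 4.06 and 4.12 in replicates 1, 2 and 3 and of 3.99 ± 0.17 on average. In CPM, where the short Nfkbia message weighs less, this ratio was 1.83 ± 0.08. With Nfkbiz and Tnfaip3 counted as inhibitors too, it was 5.77 ± 0.30 in FPKM and 4.17 ± 0.31 in CPM (SD, n = 3). These are ratios of messages, and protein was not measured. Nfkbia and Nfkbiz are also among 23 genes known to be induced when tissue is dissociated. The median of log2(FPKM + 1) over those 23 genes was 8.89 ± 0.08 (SD, n = 3). The part of dissociation in the inhibitor levels and ratios was not tested.

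The value of Nfkbib carries 2 limits. Its effective length was 1208, 1133 and 1192 bases in replicates 1, 2 and 3, so the transcript mix assigned to it differed between libraries, and the highest over the lowest library was 1.24 times in FPKM and 1.16 times in CPM. Its exons also overlap those of Sirt2 on the opposite strand, a deacetylase gene with 1287, 1190 and 1221 counts against 407, 432 and 389 for Nfkbib.

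Tnfaip3 and Nfkbiz, which restrain the pathway at other points than the cytoplasmic inhibitors, followed Nfkbia in abundance. Tnfaip3 encodes a ubiquitin-editing enzyme that shuts down signalling upstream of IKK (chromosome 10, 19000910 to 19015657). It was at 142, 126 and 159 FPKM, lowest in replicate 2 and highest in replicate 3. Nfkbiz encodes IkB-zeta, a nuclear family member that can both limit and assist NF-kB at promoters (chromosome 16, 55811375 to 55838899). It was at 116, 99.3 and 120 FPKM, with replicate 2 again the lowest. The means were 142 ± 16.3 and 112 ± 11.1 FPKM (SD, n = 3), and Tnfaip3 exceeded Nfkbiz by 1.27 ± 0.05 times.

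In the order of mean FPKM, Nfkbia, Tnfaip3, Nfkbiz, Rela, Nfkb1, Nfkbib, Rel, Nfkbie, Relb and Nfkb2, 8 of the 9 neighbouring pairs had ranges that did not overlap, and the higher member led in all 3 libraries. The exception was Nfkbie and Relb, whose log2(FPKM + 1) differed by 0.01 ± 0.14 (SD, n = 3) with Nfkbie higher in 2 of 3 libraries. Flipping the signs of the library differences in an exact two-sided permutation test gave p = 0.25 for each of the 8 pairs, the smallest p that 3 libraries allow, and 0.281 after Benjamini-Hochberg adjustment over the 9 pairs. No pair could pass 0.05 in this design. For Nfkbie and Relb the same exact permutation test gave p = 1, which does not show that they were equal.

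Read numbers placed the genes differently, because a long message yields more reads. Tnfaip3 with an effective length of 4095 bases had 583 ± 66.0 CPM and Nfkbia with 1298 bases had 701 ± 12.8 (SD, n = 3), a ratio of 1.21 instead of 3.82. In CPM Nfkb1 was above Rela, Rel above Nfkbib, and Nfkb2 above Nfkbie and Relb. The order of the first 3 members was the same in both units.

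**Figure D3:**
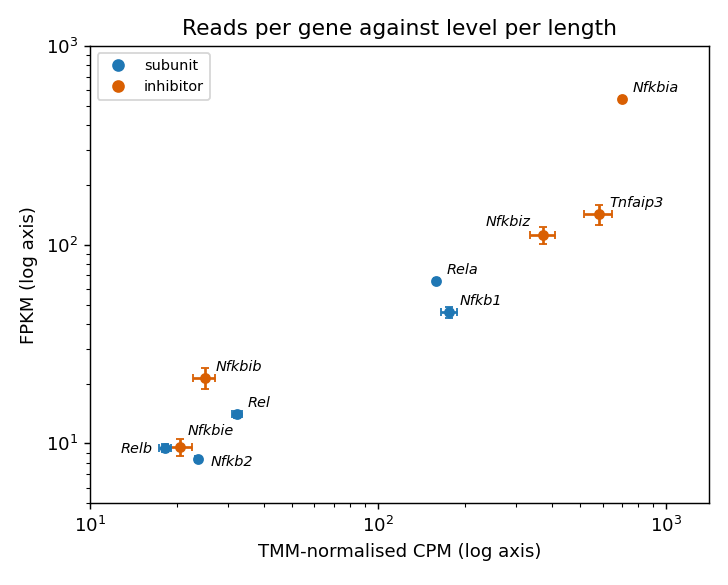
Mean FPKM against mean TMM-normalised CPM for the 10 members, both on log axes, with SD over 3 libraries as bars. The inhibitors Nfkbia, Tnfaip3 and Nfkbiz form the upper end in both units, and Nfkb1 lies to the right of Rela but below it (176 against 159 CPM, 45.8 against 65.4 FPKM).

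The libraries differed by more than counting error for some members. When the 3 counts of a gene were tested for homogeneity by chi-square, on 13246 genes with Benjamini-Hochberg adjustment at 0.05, 4 of 10 members were called (Tnfaip3, Nfkbiz, Nfkb1 and Nfkbia), and 41.4% of all genes were. The share of members is thus near the background. The test compares libraries, not conditions, and abundant genes reach it more easily.

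Tnfaip3 had the widest gap for its depth, with 582, 518 and 650 CPM in replicates 1, 2 and 3. Its chi-square per degree of freedom, which is 1 on average when only counting error acts, was 119, higher than in 96.7% of the 241 genes whose mean count was within 1.5 times its own. Nfkbiz, at 388, 332 and 401 CPM, reached 57.1, higher than in 95.3% of 464 genes of like count. Both were lowest in replicate 2 and highest in replicate 3. Nfkb1, at 189, 171 and 168 CPM with replicate 1 the highest, reached 11.9, higher than in 78.6% of 1246 genes of like count. Its value was 0.31 without replicate 1, and it was no longer called. The median over all 13246 genes tested was 3.06 with all 3 libraries. Without replicate 2 Nfkbiz was at 3.74 and was no longer called, and it was 102 without replicate 1. Tnfaip3 was called whichever replicate was left out, with 235 without replicate 1, 63.3 without replicate 2 and 61.0 without replicate 3. Nfkb1 was at 19.5 without replicate 2. Values with a replicate left out, here and below, have 1 degree of freedom instead of 2. Their size is therefore not comparable with that of the values from all 3 libraries.

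Nfkbia varied far less for its depth. It had 686, 705 and 711 CPM, and its chi-square per degree of freedom of 3.92 was higher than in only 21.3% of 197 genes of like count. Its call did not hold without replicate 1 (0.22) or replicate 3 (4.15) or without the filter on low counts, and the value was 7.23 without replicate 2. Rela varied by 2.02% of its mean in CPM, about the 1.96% that counting alone gives. Nfkb2, Relb and Rel likewise had coefficients of variation of 2.17, 4.58 and 4.25%, under the 5.09, 5.80 and 4.35% expected from counting alone. For Nfkb2, Relb and Rel, differences between libraries of a few percent were not detectable at this depth. Nfkbib and Nfkbie, also low, varied by 8.82 and 9.72% in CPM, above the 4.95 and 5.47% expected from counting. Neither was called by the chi-square test (adjusted p = 0.089 and 0.081).

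**Figure D4:**
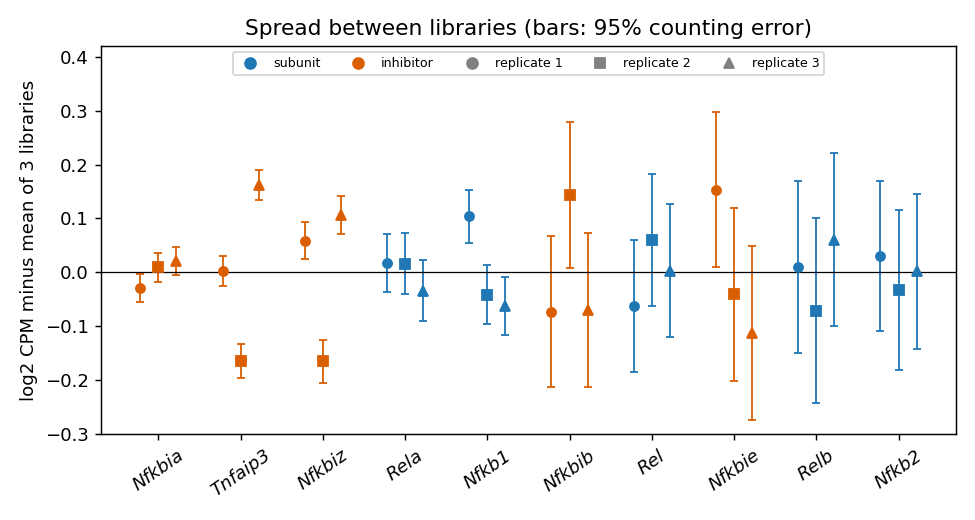
Difference between the log2 CPM of each library and the mean of the 3 libraries, for each member, with 95% counting error as bars. Tnfaip3 and Nfkbiz in replicate 2 lie 0.17 below their means, and in replicate 3 they lie 0.16 and 0.11 above, all beyond their bars. The bars of Rela, Rel, Relb and Nfkb2 all cross 0. Nfkbib in replicate 2 and Nfkbie and Nfkb1 in replicate 1 lie above their means, also beyond their bars.

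Other measures also differed in replicate 2, where Tnfaip3 and Nfkbiz were lowest. The shares below cover replicate 2 alone, though both genes were also above their means in replicate 3. Of 23 genes known to be induced when tissue is dissociated, a list that includes Nfkbia and Nfkbiz, 65.2% were lowest in replicate 2, against 35.4% of all genes tested. This was not particular to that list: the share was 62.5% among the kinases and 57.9% among receptors and adaptors. It was 48% among ubiquitin regulators, 42.9% among ligands and 37.5% among the other IkB-like and Ras-like regulators. The reported NF-kB target genes, at 29.0%, were below the share of all genes. Over all pathway genes apart from the members it was 48%. The summed level of the dissociation genes was 16329, 16031 and 16646 FPKM in replicates 1, 2 and 3. Markers of other cells stood the other way, with neutrophil sums of 14209, 15688 and 14213 FPKM, monocyte sums of 621, 694 and 609 FPKM and endothelial sums of 2362, 2538 and 2384 FPKM. Except for the mural and fibroblast and the choroid plexus lists, every marker list, microglia included, had its highest sum in replicate 2. The summed FPKM of all genes was also highest there, at 536963, 560743 and 529085. On the log2 CPM scale, genes of like length to Tnfaip3 had a median deviation of -0.03 in replicate 2, and Tnfaip3 minus that median was -0.13. In replicate 3 that median was 0.03, and Tnfaip3 minus it was 0.14. Genes of like length to Nfkbiz had a median of -0.02 in replicate 2, and Nfkbiz minus that median was -0.15. In replicate 3 the median was 0.01, and Nfkbiz minus it was 0.09. The part of tissue dissociation and of other cells in these differences was not tested.

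The other genes of the pathway were mostly present too. Over 6 lists with 106 genes apart from the members, 94 were detected, and the median of log2(FPKM + 1) was 4.33 ± 0.05 (SD, n = 3), below the 5.01 of the members and above the 0.95 of all genes. The account below follows the signal from the cell surface to the target genes.

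Of 20 receptors and adaptors 18 were detected. Cd14, which hands bacterial lipopolysaccharide to its receptor, was the highest at 438 ± 29.1 FPKM (SD, n = 3), followed by the TNF receptor Tnfrsf1a at 97.2 ± 3.51 FPKM. Tlr4 itself was at 41.2 ± 3.71 FPKM. Tnfrsf13c, a receptor of B cells, was lowest with 0, 3 and 9 counts. Cd40, which feeds the non-canonical route, had 21, 57 and 42 counts and did not reach 1 FPKM in every library.

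Of 10 ligands 6 were detected, and Il1b at 190 ± 13.05 and Il1a at 109 ± 11.5 FPKM (SD, n = 3) were the highest, ahead of Tnf at 56.4 ± 2.10 FPKM. Tnfsf11 and Cd40lg had no count in any library, and Lta had 3, 3 and 0. Il1a had estimated counts that were not whole, so its reads are partly shared with another gene model.

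The kinases that connect receptors to the inhibitors were detected in 15 of 16 cases. Tab2, an adaptor of the kinase above IKK, was highest at 108 ± 6.79 FPKM, and the receptor-associated kinase Irak2 followed at 39.9 ± 1.01 FPKM (SD, n = 3). The IKK complex itself was at lower levels, with the catalytic subunits Chuk at 24.7 ± 1.65 and Ikbkb at 24.3 ± 0.66 FPKM and the regulatory subunit Ikbkg at 13.5 ± 0.87 FPKM. Map3k14, the kinase of the non-canonical route, was at 11.3 ± 0.43 FPKM. Ikbke, an inducible IKK relative, was lowest at 0.86 ± 0.26 FPKM and not detected in all libraries.

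Among 25 genes of ubiquitin regulation 23 were detected. Tax1bp1, an adaptor for the Tnfaip3 product, was highest at 75.2 ± 3.66 FPKM, and the ubiquitin-conjugating cofactor Ube2v1 was at 61.4 ± 3.70 FPKM (SD, n = 3). Tnip1, a second partner of the Tnfaip3 product, was at 10.1 ± 0.52 FPKM and Cyld, another deubiquitinase that limits the pathway, at 13.5 ± 1.51 FPKM. Tnfaip3 at 142 FPKM was thus above every one of these 25 genes. The lowest was Tnip3 with 26, 13 and 11 counts.

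The other IkB-like and Ras-like regulators were low, with 8 of 9 detected and no mean above that of Commd1. Commd1 at 29.5 ± 4.61 and the Ras-like Nkiras2 at 22.1 ± 2.98 FPKM (SD, n = 3) were highest. The nuclear IkB relatives Nfkbid at 11.2 ± 0.87 and Bcl3 at 6.68 ± 1.29 FPKM were well below Nfkbiz, the nuclear member at 112 FPKM. Nkapl had 18, 6 and 7 counts and was not detected.

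Of 32 reported NF-kB target genes 29 were detected, and the median of log2(FPKM + 1) was 4.93 ± 0.03 (SD, n = 3). The chemokine genes Ccl3 and Ccl4 were the highest at 1387 ± 70.3 and 701 ± 8.85 FPKM, and both also belong to the dissociation list. Il12b, with 0, 8 and 16 counts, was the lowest. Nos2 and Traf1 also missed the detection level, at 0.82 ± 0.27 and 0.68 ± 0.39 FPKM.

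**Figure D5:**
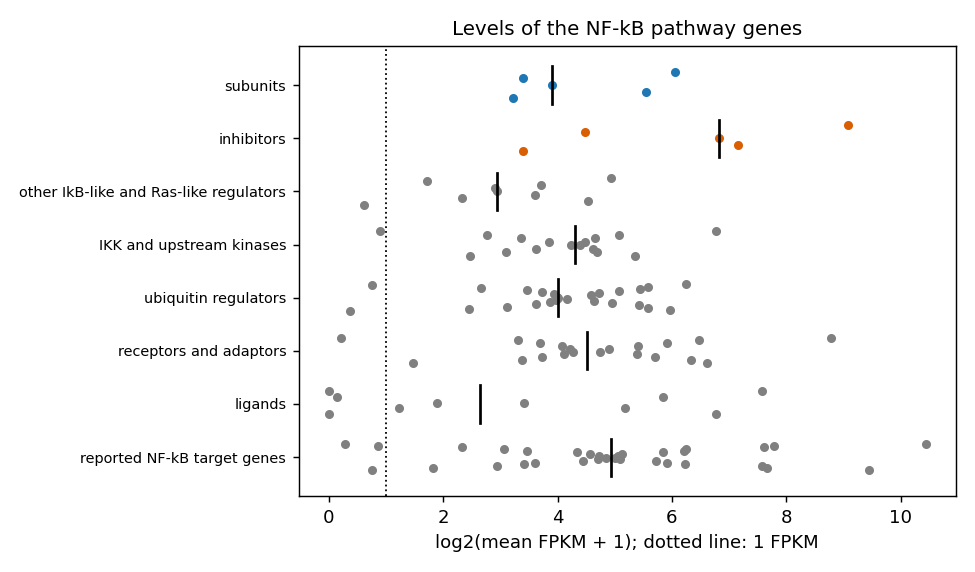
Mean FPKM over 3 libraries as log2(FPKM + 1) for each gene of the 8 lists, with the list median as a bar and 1 FPKM as a dotted line. The inhibitors have the highest median of the lists shown, the other IkB-like regulators and the ligands the lowest, and a few ligands and receptors lie near 0.

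Compared with other signalling families in the same libraries, the members were close to the 9 interferon regulatory factors, all detected, whose median log2(FPKM + 1) was 5.05 ± 0.18. The difference of members minus that family was -0.04 ± 0.11 (SD, n = 3), with members higher in 2 of 3 libraries (exact two-sided sign-flip permutation p = 1). Against 16 Janus kinase, STAT and SOCS genes, all detected, the members were higher in 3 of 3 libraries by 0.93 ± 0.08 (SD, n = 3). There the exact permutation test gave p = 0.25, the smallest possible. The median of those 16 genes was 4.08 ± 0.02. Both comparisons depend on pooling the members: the subunits alone, at 3.91, were below both families, and the inhibitors alone, at 6.81, were above both.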

How the data were processed

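RNA sequencing of 3 libraries of 1 group was analysed. The authors deposited estimated counts and FPKM per gene. Tools named in the submitters' processing notes are STAR 2.7.9a, RSEM and DESeq2, and builds GRCm38 and mm10, without roles. No source used here states the annotation, settings or strand. The tables hold 24411 genes, of which 12 names had become dates and were joined by date, and 0 columns of other samples. All counts of the 10 members were whole. Estimated counts were rounded, filtered and TMM-normalised in edgeR 4.0.16 (R 4.3.3), leaving 13246 genes for a chi-square test of homogeneity between libraries. The test was tried on simulated counts with counting error alone, apart from planted changes. In these libraries 41.4% of genes were called, so the simulation does not show how the test behaves with their other variation. Levels used a pseudocount of 1, and detection meant at least 1 FPKM in all libraries. Coordinates (1-based) and transcript lengths come from GENCODE M21 on GRCm38, promoters and the microRNA from RefSeq GRCm38.p6. Members and lists were chosen with earlier results of these data known. Named pathway genes are the 2 highest and 1 lowest of each list. Others (Tlr4, Cd40, Tnf, Tnfsf11, Cd40lg, Lta, Chuk, Ikbkb, Ikbkg, Map3k14, Tnip1, Cyld, Nfkbid, Bcl3, Nos2, Traf1) and the comparisons by transcript length, like length and like count were chosen after values were seen. With 1 group of 3 replicates there is no pattern over conditions, so no genes of like pattern were sought. Counting error is the only error that the chi-square test and the bars of counting error cover.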

Additional observations from a re-analysis of the deposited data

How the results depend on the processing

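No paired analysis was possible because the 3 libraries form 1 group. In TMM-normalised CPM the ratio of inhibitors to subunits was 1.83 and that of Rela and Nfkb1 to Relb and Nfkb2 8.01, and the Nfkbia share was 93.9%. With all 5 inhibitor members the first ratio was 5.77 in FPKM. In CPM 3 neighbouring pairs changed order on the log2 scale: Rela minus Nfkb1 was -0.14, Nfkbib minus Rel -0.36 and Relb minus Nfkb2 -0.36. Leaving out 1 replicate in turn gave -0.0568 to 0.0857 for Nfkbie minus Relb, which reversed without replicate 1 (-0.0568) and without replicate 2 (-0.0081), and with GENCODE transcript lengths, chosen after seeing the data, Rel minus Nfkbie was -0.86. Leaving out 1 replicate gave 2 to 3 members called against 4 by the homogeneity test and 2498 to 3780 genes overall against 5485, where fewer libraries were compared, and a threshold of 0.01 gave 3569. The level of the pooled pathway genes was 4.26 with pseudocounts of 0.1 and 0.01 and 4.60 over detected genes alone. All 10 members were detected at 0.5 and 5 FPKM and without each replicate. With DESeq2 size factors or library totals alone the same 4 members were called. Depth limits most the 5 members with the fewest counts (Nfkbib, Rel, Nfkbie, Relb and Nfkb2).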
